A study of Rattus norvegicus with 18 samples.

Results

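The genes described here are 39 interferon response genes, and they were followed in rat soleus muscle across sham operated and partly nephrectomised rats and across the unligated and the ligated hindlimb. A gene was taken as a member where it was the only gene named for a probe set on the array, and where several probe sets named it the brightest, by its mean over the 18 arrays, stood for it. By this rule 35 of the 39 members were measured, out of 14217 genes in all. These were 25 of 27 genes best known as targets of type I interferons and 10 of 12 genes best known as targets of interferon gamma. Gbp5, Trim21, Xaf1 and Ifi47 had no such probe set and were not analysed here. Ddx58, which encodes the RNA sensor RIG-I, was found under its synonym Rig1 with the same Entrez gene ID. The rule used no comparison between groups, but the members were chosen with earlier results of these data known. Counts over the list therefore describe it and are not a test.

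The study took RNA from the soleus, a hindlimb muscle, of 9 male rats and asked, by its title, about the response to ischemia in chronic kidney disease. Kidney disease was modelled by 5/6 nephrectomy (SNX) in 5 rats, and 4 rats had a sham operation of the kidney. After 8 weeks, all 9 rats had the right femoral artery tied off and cut out, and both limbs were sampled 24 hours after that, which gave 1 array per limb and rat. The 4 groups were therefore the left muscle of sham rats (n = 4), the right, ligated muscle of the same sham rats (n = 4), the left muscle of SNX rats (n = 5) and the right, ligated muscle of the same SNX rats (n = 5). Every left muscle came from an animal with a ligated artery in the other limb. No array came from before ligation, so a step or change below runs from the left to the right limb at 24 hours. Ligation was always on the right, so ischemia, the surgery of the limb and the side cannot be told apart. The strain and age of the rats were not given in the sources used here. The source labels call all sham arrays nonischemic and all SNX arrays ischemic, against the study's design text, so operation and side give the group names used here.

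Interferons are secreted proteins that tell cells of infection or tissue damage. Type I interferons bind the receptor made of Ifnar1 and Ifnar2, and through the kinases Jak1 and Tyk2 they activate a complex with Stat2 and Irf9 that binds the interferon-stimulated response element (ISRE) of its target genes. Interferon gamma binds Ifngr1 and Ifngr2 and acts through the gamma-activated site (GAS) of its target genes, and many of its targets load peptides onto class I molecules of the major histocompatibility complex. Macrophages and endothelial cells respond to interferons as muscle fibres do, and the arrays measured the RNA of whole muscle, in which more cells of a type and more RNA per cell cannot be told apart.

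The promoter windows of the members carry these elements at different places, and the stretches below are shown for the members on which the results turn and for pairs of close relatives. Windows from RefSeq (build GRCr8) run from 250 bases before to 50 bases after the start site and were found for 27 of the 35 measured members. The ISRE was searched as GAAA, 2 bases of any kind and GAAA, and the GAS as TTCNNNGAA, on both strands, with overlaps allowed, so that on the printed strand an ISRE can also read TTTC, 2 bases and TTTC. An ISRE match was present in 19 of the 27 member windows (70.4%) and in 3.92% of all 33469 windows. A GAS match was present in 10 of the 27 (37%) and in 8.87% of all windows, 8 members had both and 6 had neither. Of the type I genes, 11 of 17 windows held an ISRE and 6 held a GAS, and of the gamma-type genes 8 of 10 held an ISRE and 4 held a GAS. The members were chosen as known interferon targets, so these shares describe the list and are not a test, and a match is not a measured binding site. Each stretch below is 50 bases long, 5′ to 3′ on the strand of the gene, with the letters of the matches in capitals.
Ifitm3: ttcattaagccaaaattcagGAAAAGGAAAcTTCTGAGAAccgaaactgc
Ifitm2: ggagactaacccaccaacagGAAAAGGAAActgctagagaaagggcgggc
Gbp2: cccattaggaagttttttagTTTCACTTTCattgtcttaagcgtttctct
Psmb8: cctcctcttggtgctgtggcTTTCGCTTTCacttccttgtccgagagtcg
Tap1: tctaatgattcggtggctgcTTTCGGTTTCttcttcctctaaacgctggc
Irf7: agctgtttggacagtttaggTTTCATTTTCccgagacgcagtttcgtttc
Oas1a: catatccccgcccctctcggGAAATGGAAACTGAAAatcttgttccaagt
Oas1b: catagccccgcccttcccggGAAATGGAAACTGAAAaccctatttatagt
Igtp: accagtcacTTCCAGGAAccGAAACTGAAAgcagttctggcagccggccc
Irgm: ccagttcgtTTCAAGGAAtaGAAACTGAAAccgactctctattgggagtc
In the stretch of Ifitm3 (chr1:205541773-205541822 on the minus strand) the ISRE match starts at position -44 from the start site and the GAS match follows at -33. The stretch of Ifitm2 (chr1:205482352-205482401 on the minus strand) has the same ISRE letters at -33 and no GAS. For Gbp2 (chr2:234005676-234005725 on the plus strand) the ISRE match lies at -31, for Psmb8 (chr20:4657006-4657055 on the minus strand) at -4, for Tap1 (chr20:4668635-4668684 on the minus strand) at -121 and for Irf7 (chr1:205800063-205800112 on the minus strand) at -69. The neighbouring genes Oas1a (chr12:41330405-41330454 on the plus strand) and Oas1b (chr12:41395882-41395931 on the minus strand) share a run of overlapping ISRE matches. The GTPase genes Igtp (chr10:42874924-42874973 on the plus strand) and Irgm (chr10:33742583-33742632 on the minus strand) each have a GAS match directly before an ISRE match. No match to either element was found in the windows of Stat2, Mx1, Oasl, Ifi35, Parp9 and Psmb9. The windows of Tap1 and Psmb9, which lie head to head on opposite strands, overlap by 44 bases.

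Array medians were between 3.22 and 3.37 on the log2 scale of the table. Mean correlations with the other arrays were 0.987 to 0.992 for 16 arrays and lower for the right arrays of sham rat 17 (0.978) and SNX rat 49 (0.980). Markers of slow and of fast muscle fibres were bright on all arrays, with means of 11.12 to 14.92 for the slow list and 14.67 to 15.00 for the fast list. The slow list was lowest on the right array of SNX rat 20 (11.12) and the left array of sham rat 17 (12.10). All 9 T cell, 8 NK cell and 2 B cell markers measured were dim, which here means a mean over the 18 arrays below 3.30, the median of all probe sets. The T cell list mean was still higher on the right arrays of sham 17 (3.16) and SNX 49 (2.96) than on the other 16 arrays (2.37 to 2.50). Of the members, 29 were not dim. The other 6, Oas1b, Oasl, Ifit1, Ifit3, Ifih1 and Zbp1, were dim type I genes, and their small differences are given as values only.

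After 24 hours, the ligated muscle had higher levels of Ifitm3 and Gbp2 than the other muscle of the same rat, in all 9 rats. Ifitm3, a membrane protein that blocks the entry of viruses, was higher by 1.09 ± 0.16 (SE) on the log2 scale, which is 2.13-fold. Gbp2, a guanylate-binding GTPase induced by interferon gamma, was higher by 0.61 ± 0.10, which is 1.52-fold. These 2 of 35 members passed the test on the right minus left differences of the 9 rats (limma, Benjamini-Hochberg adjusted over 31042 probe sets), at adjusted p of 0.0219 and 0.0283. Of all probe sets, 3.51% passed in that test and 1.78% passed with a higher level. When the rat was a random block in a fit over all 18 arrays, 7 members passed, all of them higher in the ligated muscle, against 9.05% of all probe sets in either direction and 4.56% that were higher. These were Ifitm3, Gbp2, Ifitm2, Stat2, Psmb8, Psmb9 and Tap1, and no member was lower past the threshold in either fit. Each by its brightest probe set, as the members are, 4.78% of all 14217 genes passed the paired test and 12.3% passed with the block. Of the members 5.71% and 20% did so, and the paired share was thus near that of all genes.

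As a list, 29 of the 35 members had a mean right minus left difference above 0, with a median of 0.25. Above 0 were 34.1% of all probe sets, and 5718 of the 14217 genes by brightest probe set. Without sham 17 and SNX 49 the members above 0 were 27 of 35, with a median of 0.18. The 10 gamma-type genes were all above 0, with a median of 0.37. Of the 25 type I genes 19 were above 0, with a median of 0.20. Of the other 6, 4 were dim (Zbp1, Ifih1, Ifit1 and Oas1b), and Oas1a (-0.09 ± 0.14) and Rsad2 (-0.10 ± 0.21) were not. Ifitm3, Gbp2 and Psmb9 were higher in the right limb of every rat, 3 of 35 members against 2.85% of all probe sets and 631 of the 14217 genes.

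**Figure D1:**
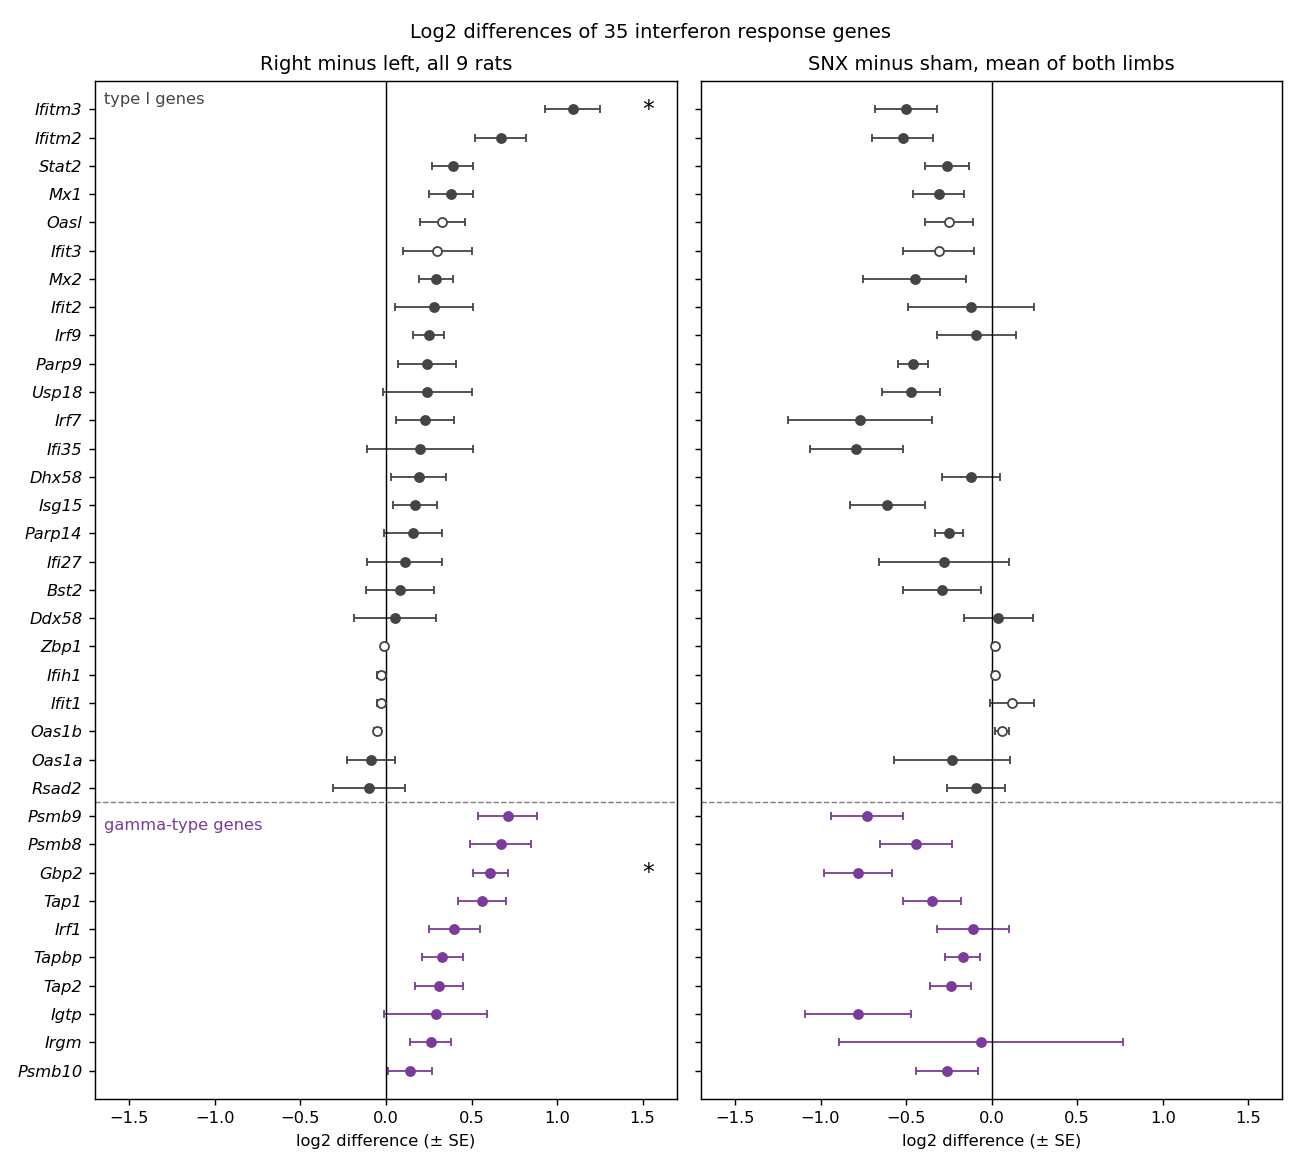
Points are log2 differences and bars are standard errors for the 35 measured members, type I genes above and gamma-type genes below the dashed line, with open points for dim genes and a star where the adjusted p passed 0.05. On the left, right minus left over 9 rats, Ifitm3 (1.09) and Gbp2 (0.61) carry the stars, and on the right, SNX minus sham with both limbs averaged, 30 of 35 points lie below 0 and none carries a star.

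Markers of macrophages differed in the same direction as these genes. The list mean of 13 macrophage markers was 5.60 to 6.37 on the left arrays and 6.03 to 8.36 on the right arrays of sham rats. It was 4.95 to 5.58 on the left and 5.33 to 7.68 on the right arrays of SNX rats. In SNX rat 20 the list mean was lower on the right (5.33) than on the left (5.58), and in every other rat it was higher on the right. The highest values were those of the right arrays of sham 17 (8.36) and SNX 49 (7.68). All 13 markers had a difference above 0 over the 9 rats, with a median of 0.82, and 1 passed the test, 7 with the block. Itgam and Fcgr3a of this list were dim. Of all 14217 genes by brightest probe set, 4.78% passed the test and 12.3% passed with the block. Endothelial markers had a median difference of 0.28, with 3 of 9 past the test and 5 with the block. The fibroblast list had a median of 0.50, with 1 of 7 past the test and 0 with the block. The neutrophil list had a median of 0.23, with 3 of 4 genes above 0 and none past either test. The dendritic cell list had the larger median of 1.03, with 3 of 3 genes above 0, none past the test and 1 with the block, although 2 of the 3 were dim. Its mean was 5.53 on the right array of sham 17 and 5.03 on that of SNX 49, against 2.65 to 3.40 on the other 16 arrays. The part of these cells in the differences of the members was not tested.

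**Figure D2:**
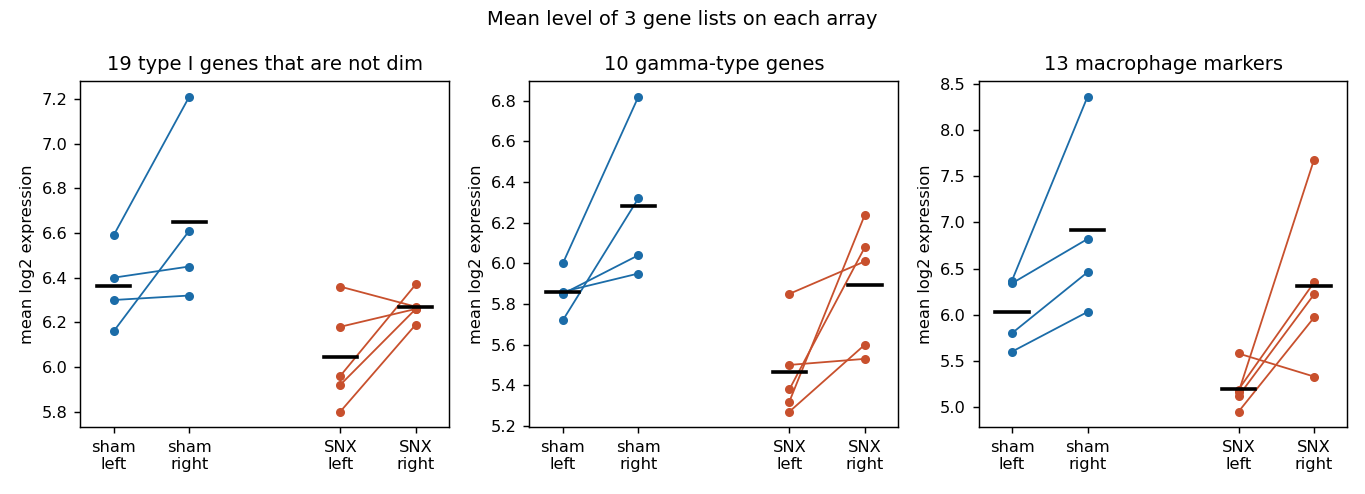
Mean log2 level of 19 type I genes that are not dim, 10 gamma-type genes and 13 macrophage markers on each of the 18 arrays, with a line joining the limbs of a rat and a black bar at the group mean. The macrophage list mean reached 8.36 on the right array of sham 17 and 7.68 on that of SNX 49, and the type I mean of sham 17 (7.21) stood above all other arrays.

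Among the genes for membrane restriction factors, Ifitm3 was higher on the right in every rat. In sham rats its log2 level went from 8.78 to 10.07 in rat 11, from 9.35 to 10.36 in rat 13, from 9.34 to 10.19 in rat 15 and from 9.65 to 10.69 in rat 17. In SNX rats it went from 8.38 to 9.38 in rat 12, from 8.85 to 9.86 in rat 18, from 9.17 to 9.46 in rat 20, from 8.64 to 9.93 in rat 37 and from 8.61 to 10.71 in rat 49. The left and right arrays did not overlap within either kind of rat, and SNX rat 49 had the largest step (2.09) and SNX rat 20 the smallest (0.29). Without sham 17 and SNX 49, whose macrophage marker means were the highest, the difference was 0.97 ± 0.13 with an adjusted p of 0.0372. Without SNX 12, 18, 20 or 49 Ifitm3 passed the paired test with adjusted p of 0.0402, 0.0495, 0.0182 and 0.0152. It missed the threshold without sham 11 (0.0537), sham 13 (0.0643), sham 15 (0.0521), sham 17 (0.0542) or SNX 37 (0.0597), with differences of 1.05 to 1.13, and with the block it passed in all 9 such fits.

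Ifitm2, the close relative of Ifitm3 with the same ISRE letters in its promoter window, was higher in the right limb of 8 of 9 rats by 0.67 ± 0.15. The sham rats went from 8.83 to 9.37 (rat 11), 9.43 to 9.81 (13), 9.35 to 9.76 (15) and 9.41 to 10.45 (17). The SNX rats went from 8.24 to 9.12 (rat 12), 8.72 to 9.40 (18), 9.08 to 9.06 (20), 8.76 to 9.37 (37) and 8.52 to 10.09 (49). SNX rat 20 was level and SNX rat 49 had the largest step, as for Ifitm3. Ifitm2 missed the threshold in the paired test (adjusted p = 0.0537) and passed with the block (adjusted p = 0.0132) and in all 9 blocked fits without 1 rat. The probe sets of such similar genes may catch each other's RNA, so their values are not independent. Bst2 (tetherin), which holds budding virus at the cell surface, had a difference of 0.08 ± 0.20 and was higher on the right in 6 of 9 rats.

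**Figure D3:**
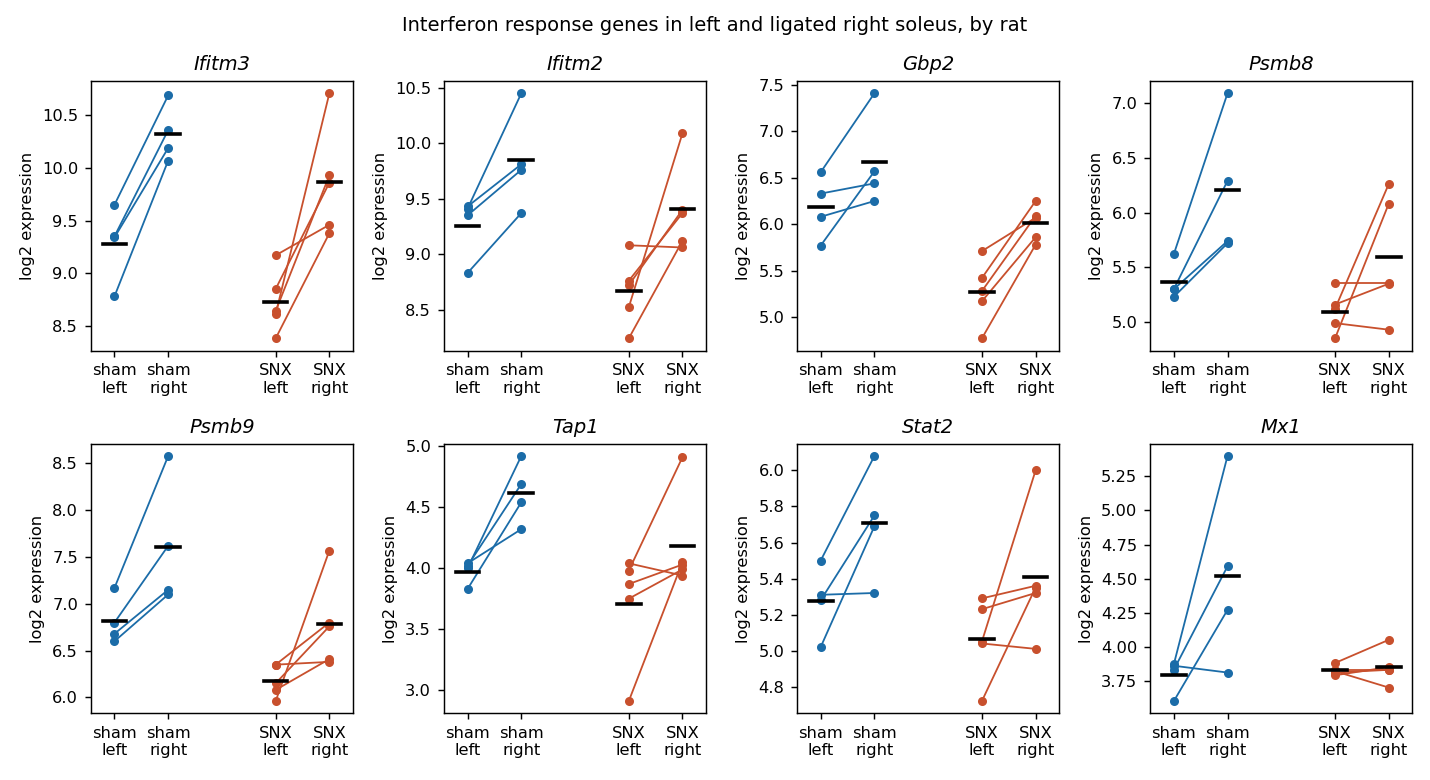
Log2 expression of 8 members in the left and right soleus of each rat, with a line joining the limbs of a rat (blue sham, n = 4; orange SNX, n = 5) and a black bar at each group mean. Ifitm3 is higher on the right in all 9 rats, and for Mx1 the SNX rats stay between 3.70 and 4.05 while 3 of 4 sham rats reach 4.27 to 5.40 on the right.

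Of the 3 interferon-induced GTPase genes, Gbp2 was higher on the right in every rat. In sham rats it went from 6.33 to 6.44 (rat 11), 5.77 to 6.57 (13), 6.08 to 6.25 (15) and 6.56 to 7.41 (17). In SNX rats it went from 4.77 to 5.78 (rat 12), 5.71 to 6.07 (18), 5.17 to 5.86 (20), 5.28 to 6.09 (37) and 5.42 to 6.25 (49). The steps were 0.11 to 1.01, and left and right arrays overlapped in sham rats and not in SNX rats. In the paired test Gbp2 missed the threshold without sham 13 (0.56, adjusted p = 0.0764), sham 15 (0.66, 0.0521), sham 17 (0.55, 0.0637) or SNX 37 (0.60, 0.0728), and without sham 17 and SNX 49 together (0.54, 0.0832). With the block it passed in all 9 fits without 1 rat. The other GTPase genes, Igtp and Irgm, which act on vacuoles that hold parasites, had differences of 0.29 ± 0.30 and 0.26 ± 0.12 and did not pass.

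The 6 genes of antigen processing all had differences above 0. Psmb9 and Psmb8 encode catalytic subunits of the immunoproteasome, which cuts proteins into peptides for class I molecules. Psmb9 went from 6.60 to 7.10 (rat 11), 6.80 to 7.62 (13), 6.68 to 7.15 (15) and 7.17 to 8.58 (17) in sham rats. In SNX rats it went from 6.08 to 6.41 (rat 12), 6.35 to 6.80 (18), 6.35 to 6.38 (20), 6.15 to 6.76 (37) and 5.96 to 7.57 (49). It was higher on the right in all 9 rats, with steps from 0.04 in SNX 20 to 1.61 in SNX 49, and the groups overlapped in sham rats only. The mean difference was 0.71 ± 0.17 (adjusted p = 0.0614, with the block 0.0199).

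Psmb8 went from 5.30 to 5.74, 5.30 to 6.29, 5.23 to 5.72 and 5.62 to 7.09 in the sham operated rats 11, 13, 15 and 17. In SNX rats 12, 18, 20, 37 and 49 it went from 4.99 to 4.93, 5.16 to 5.35, 5.36 to 5.36, 5.12 to 6.26 and 4.85 to 6.08. Right and left did not overlap in sham rats, and in SNX rats the mean rested on rats 37 and 49, with steps of -0.06 to 0.20 in the other 3. The mean difference was 0.67 ± 0.18 (adjusted p = 0.0782, with the block 0.0272).

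Tap1 encodes a subunit of the transporter that carries peptides into the endoplasmic reticulum. It went from 3.83 to 4.54, 4.02 to 4.69, and 4.04 to 4.32 in sham rats 11, 13 and 15, and in sham rat 17 it reached 4.92 after a step of 0.93. In SNX rats 12, 18, 20, 37 and 49 it went from 3.87 to 4.03, 4.04 to 3.94, 3.75 to 3.99, 2.91 to 4.05 and 3.98 to 4.91. The sham groups did not overlap and the SNX groups did, with the left array of SNX 37 low and the right array of SNX 49 high. The mean difference was 0.56 ± 0.14 (adjusted p = 0.0656, with the block 0.0214). The other Tap1 probe set was dim and had a difference of -0.02. The remaining genes, the transporter subunit Tap2 (0.31 ± 0.14), the peptide-loading chaperone Tapbp (0.33 ± 0.12) and the proteasome subunit Psmb10 (0.14 ± 0.13), did not pass in either fit over all rats. Tapbp passed in the blocked fits without sham 15 (0.40, adjusted p = 0.0365) or SNX 20 (0.38, 0.0479).

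The calls of the antigen processing genes depended on which rats were in the blocked fit. Psmb9 and Tap1 each passed in 6 of the 9 fits without 1 rat and Psmb8 in 4. Psmb9 missed the threshold without sham 13 (0.70, adjusted p = 0.054), SNX 18 (0.73, 0.0505) or SNX 37 (0.70, 0.0559). Tap1 missed it without sham 11 (0.55, 0.0695), 13 (0.56, 0.0578) or 17 (0.52, 0.079). Psmb8 missed it without sham 13 (0.65, 0.0749) or 17 (0.57, 0.068) and without SNX 18 (0.71, 0.0563), 37 (0.59, 0.0716) or 49 (0.58, 0.0697). Without sham 17 and SNX 49 together the differences were 0.48 for Psmb9 (adjusted p = 0.0124), 0.48 for Psmb8 (0.113) and 0.46 for Tap1 (0.0824).

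Among the transcription factors, Stat2, which carries type I signals to the nucleus, passed only with the block (0.39 ± 0.11, adjusted p = 0.0423, against 0.1 in the paired test). In sham rats 11, 13 and 15 it went from 5.28 to 5.75, 5.02 to 5.69, and 5.31 to 5.32, and rat 17 reached 6.08 after a step of 0.58. In SNX rats 12, 18, 20, 37 and 49 it went from 5.23 to 5.32, 5.04 to 5.01, 5.29 to 5.36, 4.72 to 5.35 and 5.05 to 6.00. Right and left overlapped in both kinds of rat, and 4 of the 9 rats were level within 0.1. The other Stat2 probe set had a difference of -0.03 (adjusted p = 0.843), and the blocked call was kept in 2 of 9 fits without 1 rat, those without sham 15 (0.46, adjusted p = 0.0325) or SNX 20 (0.42, 0.0437). In the other 7 fits the difference was 0.38 without sham 11 (adjusted p = 0.114), 0.35 without sham 13 (0.113), 0.36 without sham 17 (0.106), 0.42 without SNX 12 (0.0556), 0.43 without SNX 18 (0.0526), 0.35 without SNX 37 (0.105) and 0.31 without SNX 49 (0.0739).

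The other transcription factors of the list did not pass. Irf1, which interferon gamma induces early, had a difference of 0.40 ± 0.15 and was higher on the right in 7 of 9 rats. Irf9, which binds the ISRE together with Stat2, had 0.25 ± 0.09 and was higher in 8 of 9 rats. The other Irf9 probe set, which was not dim, had a difference of 0.07. Irf7, the factor that amplifies the production of type I interferon, had 0.23 ± 0.17 and was higher in 6 of 9 rats.

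The antiviral effectors and the sensors showed no member past the threshold in either fit over all rats. Mx1 passed in the blocked fit without sham 11 (0.51, adjusted p = 0.0236). The Mx1 and Mx2 GTPases, which block viral replication, had differences of 0.38 ± 0.13 and 0.29 ± 0.10, each with 7 of 9 rats higher on the right. The other Mx2 probe set was dim and had a difference of 0.00. Ifit2, which belongs to the family of Ifit proteins that bind viral RNA, ran from 7.22 to 9.59 with no order by limb and a difference of 0.28 ± 0.23, and its other probe set had a difference of 0.31. Isg15, a ubiquitin-like protein that is joined to other proteins, had 0.17 ± 0.13, and Usp18, the protease that removes it, had 0.24 ± 0.26. The RNA sensor genes Ddx58 and Dhx58 had 0.05 ± 0.24 and 0.19 ± 0.16. Ifi27, Ifi35, Parp9 and Parp14 had differences from 0.11 to 0.24, with standard errors of 0.17 to 0.31.

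The genes of the pathway around the members were counted from a separate list of 60 genes, of which 47 were measured and 17 were dim. The ligand genes Ifnb1 (2.27 to 2.36 over the 18 arrays), Ifng (2.20 to 2.31) and Ifnk (2.60 to 2.71) were dim on every array. In the paired test of the ligated limb, 2 of 47 passed with a higher level and 1 with a lower level. This was 6.38% of the 47, against 4.78% of all 14217 genes by brightest probe set. Stat3, which carries the signals of many cytokines, was higher by 1.25 ± 0.25 (adjusted p = 0.0429). The chemokine gene Cxcl9, a target of interferon gamma, was higher by 1.11 ± 0.17 (adjusted p = 0.0249, with the block 0.0538). Mavs, the mitochondrial adaptor of the RNA sensors, was lower by 0.74 ± 0.15 (adjusted p = 0.046, with the block 0.0405). Of the 9 paired fits without 1 rat, Stat3 passed in 1, without SNX 20 (adjusted p from 0.0425 to 0.107), Cxcl9 in 4 (0.0328 to 0.0643; it missed without sham 11, 13, 15 or 17 or SNX 18) and Mavs in 1, without SNX 12 (0.0483 to 0.112), and with the block Stat3 passed in 9, Cxcl9 in 0 and Mavs in 2. Without sham 17 and SNX 49 the paired differences were 1.04, 0.95 and -0.70, with adjusted p of 0.105, 0.0692 and 0.152.

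With the block, 7 of the 47 genes were higher and 1 was lower past the threshold. This was 17% of the 47, against 12.3% of all 14217 genes by brightest probe set. The receptor genes among those that were higher were Ifnar1 (0.47, adjusted p = 0.0344), Ifngr1 (0.59, adjusted p = 0.012) and Ifngr2 (0.54, adjusted p = 0.0195), while Ifnar2 had 0.26 (adjusted p = 0.194). The others that were higher were Stat3 (adjusted p = 0.00374), the phosphatase gene Ptpn2 that turns off Jak and Stat signalling (0.47, adjusted p = 0.00607), the class I light chain gene B2m (0.35, adjusted p = 0.0335) and Lgals3bp (1.53, adjusted p = 0.0146). Of the 9 blocked fits without 1 rat, Ifngr1, Stat3, Ptpn2 and Lgals3bp passed in 9, Ifngr2 passed in 6 and missed without sham 11, sham 17 or SNX 37 (adjusted p up to 0.0795), and Ifnar1 and B2m passed in 3. Ifnar1 missed without sham 11, 13 or 17 or SNX 18, 20 or 37 (up to 0.126), and B2m without sham 11, 13 or 17 or SNX 18, 37 or 49 (up to 0.125). Over the 47 genes, 40 differences were above 0 and the median was 0.19, where 5718 of all 14217 genes were above 0.

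Within sham rats alone no member passed the test without a block (0 of 35, against 0.148% of all probe sets), and 1 passed with the random rat block (Ifitm3, against 1.8% of all probe sets). By brightest probe set, 2.46% of the 14217 genes passed with that block. With the rat as a fixed term 0 of 35 passed (0.377% of all probe sets did), and Ifitm3 had an adjusted p of 0.116. At an unadjusted p under 0.05, 8 members were higher, against 5.51% of all probe sets and 1170 of the 14217 genes, and the dim Ifih1 was lower. Ifitm3 was 9.28 ± 0.37 (SD, n = 4) on the left and 10.33 ± 0.27 (n = 4) on the right, a difference of 1.05 ± 0.26 (SE) with an adjusted p of 0.122, or 0.033 with the block. Without SNX 49, which enters only through the shared spread, Ifitm3 passed without the block (adjusted p = 0.0394). With the block it missed the threshold without sham 11 (0.96, adjusted p = 0.157), 13 (1.06, 0.114), 15 (1.12, 0.0722) or 17 (1.05, 0.109) and without SNX 18 (1.05, 0.0731) or 37 (1.05, 0.0599). Blocked fits without 1 rat also called Mx1 without sham 11 (0.99, adjusted p = 0.036), and Psmb9 (0.80, 0.041) and Tap1 (0.65, 0.0467) without SNX 49. The next 3 by p were Mx1 (0.73 ± 0.22, adjusted p = 0.196), Psmb8 (0.84 ± 0.30, 0.264) and Psmb9 (0.80 ± 0.30, 0.283). Ifitm3, Psmb8 and Tap1 had no overlap between the right and left arrays of sham rats, as had 3.24% of all probe sets with higher right arrays.

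Within SNX rats alone no member passed either (0 of 35, against 0.0451% of all probe sets), and Ifitm3 passed with the random rat block (against 0.319%). By brightest probe set, 0.492% of the 14217 genes passed with that block. With the rat as a fixed term 0 of 35 passed (0.0193% of all probe sets did), and Ifitm3 had an adjusted p of 0.166. At an unadjusted p under 0.05, 6 members were higher, against 4.08% of all probe sets and 854 of the 14217 genes, and 0 were lower. Ifitm3 was 8.73 ± 0.30 (SD, n = 5) on the left and 9.87 ± 0.53 (n = 5) on the right, a difference of 1.14 ± 0.24 (SE) with an adjusted p of 0.145, or 0.0311 with the block. With the block it missed the threshold without SNX 12 (1.17, adjusted p = 0.0756), 18 (1.17, 0.131), 37 (1.10, 0.198) or 49 (0.90, 0.124) and without sham 13 (1.14, 0.0691) or 15 (1.14, 0.0666). Gbp2 also passed in the blocked fit without sham 17 (0.74, adjusted p = 0.0434). Gbp2 (0.74 ± 0.22, adjusted p = 0.376), Ifitm2 (0.75 ± 0.23, 0.403) and Psmb9 (0.61 ± 0.27, 0.594) followed. Ifitm3, Gbp2 and Psmb9 had no overlap between right and left arrays, as had 1.38% of all probe sets with higher right arrays.

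The change with ligation was not shown to differ between SNX and sham rats for any member. In the test of the difference of the 2 changes, 0 of 35 members and 0 of 31042 probe sets (0%) passed with limma, with or without the block. At an unadjusted p under 0.05, 1 member stood lower, against 0.744% of all probe sets that were lower and 1.41% in either direction. That member was Mx1, which was 3.79 ± 0.13 on the left and 4.52 ± 0.67 on the right in sham rats (SD, n = 4), and 3.83 ± 0.03 and 3.85 ± 0.12 in SNX rats (SD, n = 5). In sham rats 11, 13, 15 and 17 Mx1 went from 3.86 to 3.81, 3.83 to 4.59, 3.60 to 4.27 and 3.87 to 5.40. All 10 SNX arrays lay between 3.70 and 4.05. Mx1 was a low gene, with a mean of 3.98 over the 18 arrays, where a mean below 3.30 counts as dim. The change was smaller in SNX rats by 0.70 ± 0.30 (95% interval of the difference -1.33 to -0.07, unadjusted p = 0.0316, adjusted p = 1, with the block 0.976).

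For Ifitm3 the difference of the changes was 0.09 ± 0.35, with a 95% interval of -0.66 to 0.84, and for Gbp2 it was 0.26 ± 0.32, with an interval of -0.43 to 0.95. A change larger in SNX rats by 0.84 for Ifitm3 or by 0.95 for Gbp2 still lies within these intervals. Mx2 (-0.43), Psmb8 (-0.34) and Bst2 (0.38) came next by p among members that are not dim. Over the list, 18 differences were above and 17 below 0, where 63% of all probe sets and 8074 of the 14217 genes were above.

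Between SNX and sham rats no member passed the test, and most members were lower in SNX rats. With both limbs of a rat averaged, 30 of 35 members were below 0, with a median of -0.26. Below 0 were 30.9% of all probe sets, and 5604 of the 14217 genes by brightest probe set. Without sham 17 and SNX 49 the members below 0 were 28 of 35, with a median of -0.16. All 10 gamma-type genes were below 0 (median -0.30), as were 20 of 25 type I genes (median -0.26), and the 5 above 0 were the dim Oas1b, Ifit1, Ifih1 and Zbp1 and the sensor gene Ddx58 (0.04 ± 0.20). None of the 35 members and none of the 31042 probe sets (0%) passed the adjusted threshold with limma, with or without the block. At an unadjusted p under 0.05, 10 members were lower and 0 were higher, against 3.75% of all probe sets and 801 of the 14217 genes that were lower.

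The 4 members with the lowest p in this comparison were Parp9, Gbp2, Psmb9 and Ifi35. Parp9, an ADP-ribosyltransferase family member that takes part in interferon signalling, had rat means of 6.18, 6.43, 6.29 and 6.58 in sham rats and 5.88, 5.96, 6.08, 5.75 and 5.90 in SNX rats. All SNX rats lay below all sham rats, with a difference of -0.46 ± 0.09 (adjusted p = 0.464). Gbp2 had rat means of 6.38, 6.17, 6.16 and 6.98 in sham rats and 5.28, 5.89, 5.51, 5.69 and 5.83 in SNX rats, which again did not overlap (-0.78 ± 0.20, adjusted p = 0.489). Psmb9 had 6.85, 7.21, 6.92 and 7.87 against 6.25, 6.58, 6.37, 6.45 and 6.76, with no overlap (-0.73 ± 0.21, adjusted p = 0.531). Ifi35 had 6.92, 6.96, 6.41 and 6.72 against 5.44, 5.68, 6.75, 6.20 and 5.74, and SNX rat 20 lay within the sham range (-0.79 ± 0.27, adjusted p = 0.562). The rat means of Isg15 and Usp18 did not overlap either, so that 5 of 35 members had all SNX rats below all sham rats, against 1.1% of all probe sets.

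In the left limb alone, 0 of 35 members passed with or without the block (0.00644% of all probe sets did), 30 were below 0 (35.5% of all probe sets were) with a median of -0.23, and 6 were lower at an unadjusted p under 0.05, against 2.94% of all probe sets. Of the 14217 genes by brightest probe set, 5835 were below 0 and 581 were lower at that p. Gbp2 was 5.27 ± 0.35 (SD, n = 5) in SNX and 6.18 ± 0.34 (n = 4) in sham rats, with no overlap (-0.91 ± 0.23 SE, adjusted p = 0.362). Psmb9 did not overlap either (-0.63 ± 0.28, adjusted p = 0.772), so that 2 of 35 members were without overlap and lower, against 1.47% of all probe sets. Ifitm2 (-0.59 ± 0.24, adjusted p = 0.725) and Parp9 (-0.48 ± 0.20, 0.737) were the others of the 4 members with the lowest p.

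In the right limb, 0 of 35 members and 0% of all probe sets passed with or without the block, 27 members were below 0 (30.3% of all probe sets were) with a median of -0.30, and 7 were lower at an unadjusted p under 0.05, against 2.73% of all probe sets. Of the 14217 genes by brightest probe set, 5709 were below 0 and 580 were lower at that p. Mx1 (-0.66 ± 0.21), Psmb9 (-0.83 ± 0.28), Gbp2 (-0.65 ± 0.23) and Isg15 (-0.75 ± 0.27) had the lowest p, each with an adjusted p of 0.498. Gbp2 was 6.01 ± 0.19 (SD, n = 5) in SNX and 6.66 ± 0.51 (n = 4) in sham rats without overlap, 1 of 35 members against 0.483% of all probe sets. The dim Oas1b was the only member without overlap that was higher in SNX rats, against 7.77% of all probe sets.

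The macrophage list was lower in SNX rats as well. With both limbs averaged, 0 of its 13 genes had a difference above 0, the median was -0.77 and none passed. Endothelial markers had a median of -0.33 with 0 of 9 above 0, and fibroblast markers had a median of -0.65 with 0 of 7 above 0. The dendritic cell list had a median of -0.31 with 0 of 3 above 0, and the neutrophil list had -0.33 with 1 of 4 above 0. Adipocyte markers had a median of -1.31 with 1 of 5 above 0. The part of these cell types in the lower values of the members was not tested. Of the 47 other pathway genes, 33 were below 0 with a median of -0.10, and none passed. Of all 14217 genes by brightest probe set, 5604 were below 0.

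Some arrays and rats stood apart for many members. The right array of sham rat 17 had the highest value of all 18 arrays for 20 of the 35 members, and for 8.23% of all probe sets. These were 13 of the 25 type I genes and 7 of the 10 gamma-type genes. On that array Isg15 was 6.05, where the other 17 arrays were between 4.04 and 5.31. Mx2 was 5.33 there and 4.78 on the left array of the same rat, with 2.99 to 4.06 on the others. Irf7 was likewise high in both limbs of sham 17, at 7.36 on the left and 7.79 on the right, with 4.65 to 6.46 on the other 16 arrays. Usp18 (6.35), Dhx58 (5.56) and the dim Ifit3 (4.83) and Oasl (4.09) were high on the right array of sham 17 and not on the left one (4.49, 4.25, 2.88 and 2.83). The macrophage list mean of that array was also the highest of all. The neutrophil list mean was high in both limbs of sham 17, at 5.05 on the left and 5.68 on the right, with 3.36 to 4.76 on the other 16 arrays. The part of these cells in the values of sham 17 was not tested. The left array of SNX rat 12 was the lowest of all for 10 members and the left array of SNX rat 49 for 7.

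**Figure D4:**
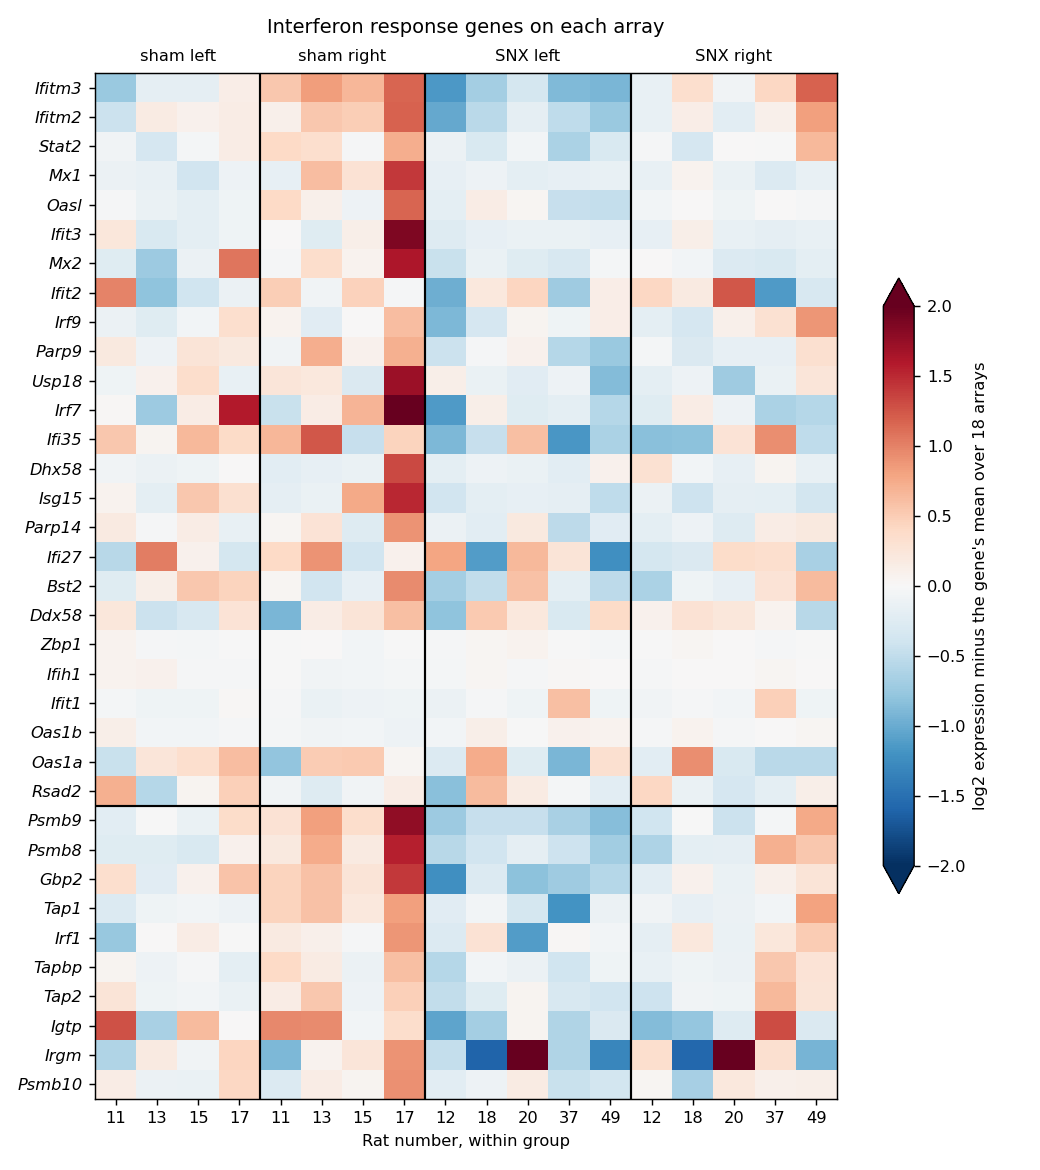
Log2 expression of the 35 members on each of the 18 arrays, minus the mean of the gene over all arrays, with columns grouped by operation and side and numbered by rat, and type I genes above the horizontal line. The column of the right array of sham 17 is the reddest, with the highest value for 20 of the 35 members, and Irgm is high in both columns of SNX 20.

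Some members, such as Irgm and the dim Ifit1, differed by rat and not by limb. Irgm was 8.61 on the left and 8.69 on the right array of SNX rat 20, and 4.28 to 6.77 on the other 16 arrays. This gap of both limbs from all other rats gives Irgm the widest spread of the list in SNX rats (SD 1.73 on the left and 1.68 on the right, n = 5), and its relative Igtp was not high in that rat (6.56 and 6.26). Igtp was highest in SNX 37 on the right (7.81), where the left limb was 5.91, and in sham 11 on the left (7.78). The dim Ifit1 was 2.81 and 2.68 in both limbs of SNX 37 and 2.08 to 2.23 on all other arrays. Of Oas1a and Oas1b, whose promoter windows share the ISRE run printed above, Oas1a ranged from 4.88 to 6.73 and the dim Oas1b from 2.74 to 2.96.

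**Figure D5:**
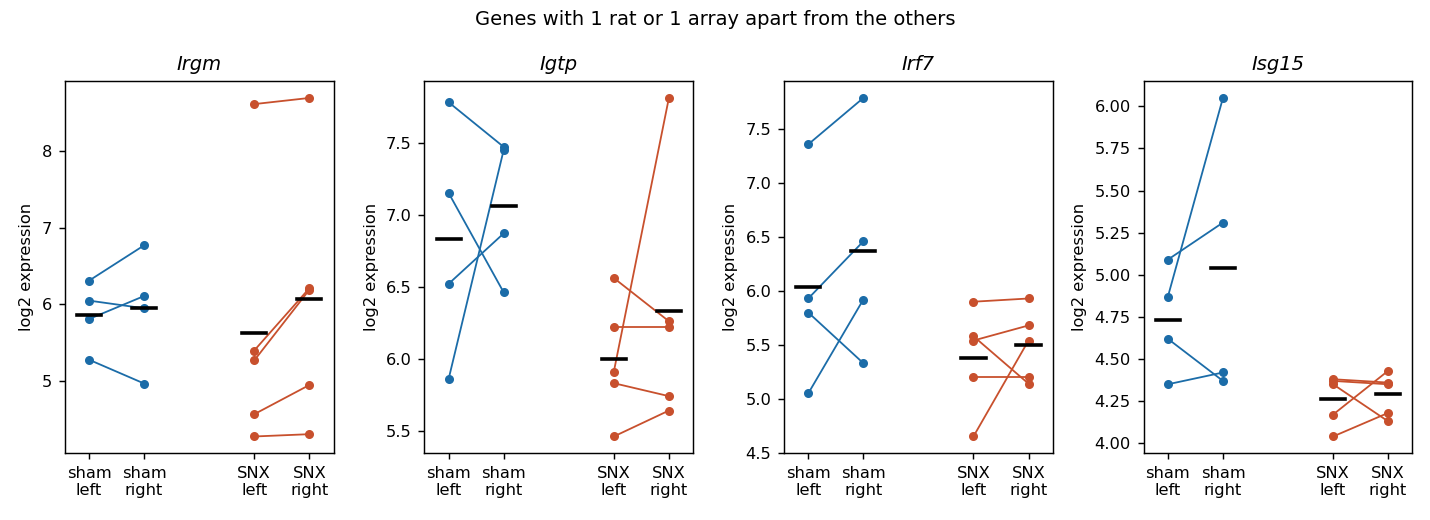
Log2 expression of Irgm, Igtp, Irf7 and Isg15 in the left and right soleus of each rat, with a line joining the limbs of a rat (blue sham, n = 4; orange SNX, n = 5) and a black bar at each group mean. Both limbs of SNX 20 lie above all other points for Irgm (8.61 and 8.69), and both limbs of sham 17 do so for Irf7 (7.36 and 7.79).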

How the data were processed

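RNA of 18 soleus samples was measured on Affymetrix rat arrays from 2 micrograms of total RNA each, per the labels' protocols. The table deposited by the authors holds normalized log2 values of 31099 probe sets. The submitters' processing notes list RMA, GCRMA and Partek, with no version and no role, so the method behind these values is unknown here. The background correction differs between RMA and GCRMA, which matters most for dim probe sets. Arrays have no read depth, and their number limits the precision.

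Without the 57 control probe sets, 31042 were tested. Gene symbols came from the platform annotation. Of the probe sets, 20826 list 1 gene (20758 matched to RefSeq by Entrez gene ID), 436 list several and 9780 list none. The main tests compared groups within a probe set. Levels were compared between probe sets to choose a gene's brightest and to mark dim ones. Shares of all probe sets include dim ones and several per gene, while a member is its gene's brightest. Shares or counts over the 14217 genes by brightest probe set are therefore given beside many of them.

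One mean per group was fitted to all 18 arrays with limma 3.58.1 (lmFit, eBayes, R 4.3.3, package data.table, version 1.17.8), with 14 residual and 1.02 prior degrees of freedom. Right against left over all rats was tested on 9 within-rat differences, with equal weight for both operations, and SNX against sham over both limbs on 9 rat means. P-values are two-sided, adjusted by Benjamini-Hochberg with a threshold of 0.05. Both limbs of a number come from the same rat by the sample titles, so a random rat block (duplicateCorrelation, consensus correlation 0.297) is given where it changed a call. The limbs' deviations from their group means correlated above 0.1 in 7 of 9 rats. In 4 of 9 rats the left limb correlated best with the right limb of its own rat. Each group member is 1 rat, and all arrays entered each fit unless stated. A fold is 2 to the power of the log2 difference.

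All measured members are accounted for. Those past the threshold with or without the block are described by rat, and where fewer than 4 passed also the 4 with the lowest p that are not dim. The members, the 4 pathway lists and the 11 cell type marker lists were chosen with earlier results of these data known. The T cell, NK cell and B cell markers were all dim, and the lists of slow fibres, fast fibres, macrophages, endothelium, fibroblasts, neutrophils, dendritic cells and adipocytes are reported with the results. Alternatives were the random block, the rat as a fixed term within each operation, repeated quantile normalization, median centring, a filter on dim probe sets, the mean of a gene's probe sets, a trended robust fit, fits of only the groups compared, and leaving out each rat or both rats whose right array stood apart. The fits of right against left without a block, within each operation and on the within-rat differences, were tested on simulated data. The blocked fits, the fixed term and the comparisons of SNX with sham rats were not. Tables and plots were made in Python 3.11.15 with pandas 2.3.3, numpy 2.4.6 and matplotlib 3.10.9.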

Additional observations from a re-analysis of the deposited data

Results flagged for a closer look

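In 18 of 140 combinations of a member and a group, 1 array lay far from the others of its group by Dixon's criterion, where chance alone gives about 1 in 20, and 7 of the 18 were dim genes. Among sham left arrays these were Mx1 in rat 15 (3.60), Ifitm2 in rat 11 (8.83), Parp9 in rat 13 (6.02) and the dim Oas1b in rat 11 (2.96). Among sham right arrays Dhx58 (5.56) and the dim Ifit3 (4.83) stood out, both in rat 17.

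In SNX left muscle, Irgm was high in rat 20 (8.61), Tap1 was low in rat 37 (2.91), and the dim Ifit1 in rat 37 (2.81) and Ifit3 in rat 12 (2.70) stood apart. In SNX right muscle, rat 18 stood apart for Oas1a (6.73), Psmb10 (6.05) and the dim Ifit3 (3.08) and Zbp1 (2.63). Rat 49 stood apart for Tap1 (4.91) and Ddx58 (6.07), and rat 37 for Igtp (7.81) and the dim Ifit1 (2.68).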

How the results depend on the processing

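For right against left over 9 rats, 2 members passed, against 3.51% of all probe sets. This count was 7 with the replicate block (9.05% of all probe sets passed) and 6 without dim probe sets (15.3% of 15921 passed). It was 5 with the mean of a gene's probe sets (7.41% of 14217 genes passed) and 1 without rats sham 17 and SNX 49 (1.21% of all probe sets). When each rat was left out in turn it was 0 to 3, against 0.322% to 2.98% of all probe sets. It was 0 without sham 13, sham 15, sham 17 or SNX 37, and 1 (Gbp2) without sham 11. With the random block it was 3 to 8 over the fits without 1 rat, against 3.75% to 10.6% of all probe sets. In sham rats the count of 0 became 1 (Ifitm3) with the random replicate block and was 0 with the rat as a fixed block. Over the fits without 1 rat it was 0 to 1 without a block (1 without SNX 49, against 0.915% of all probe sets). With the random block it was 0 to 3 in these fits (3 without SNX 49, against 5.05% of all probe sets). In SNX rats the count of 0 became 1 (Ifitm3) with the random replicate block and was 0 with the fixed block. Over the fits without 1 rat it was 0 without a block. With the random block it was 0 to 2 in these fits (2 without sham 17, against 0.254% of all probe sets). In the other 4 comparisons 0 members passed under every alternative run. Of 535 values of named members under alternatives, 505 kept their direction and their side of the threshold, 19 passed in addition, 11 no longer passed and 0 changed direction. The random rat block changed no other member's call. Blocked fits without 1 rat, and without sham 17 and SNX 49, were added after seeing the data. The causes were not tested, except that fits without a rat have fewer samples and the dim filter tests fewer probe sets (15921). Dim members cannot show small changes.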
